A study of Mus musculus with 3 samples.

Results

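The genes of the cytochrome P450 superfamily, their electron donor Por and the aryl hydrocarbon receptor genes Ahr and Ahrr were examined in RNA-seq libraries of 3 mammary tumours. Members were all gene symbols of the form Cyp, number, letters, number, with Por, Ahr and Ahrr added. This gave 97 genes among 47480 gene symbols, 94 of them P450 genes. Genes with 10 or more reads in any library were described, which left 29, of which 27 are P450 genes. The tumours were of the FVB-MMTV-Neu strain, in which the MMTV promoter drives a Neu (Erbb2) transgene in mammary epithelium. Per the labels, tumours were injected orthotopically into syngeneic hosts, reached 5 mm and were followed for 7 more days with no treatment, whereas the design text speaks only of untreated MMTV-Neu mice. All 3 tumours form 1 untreated group, so there is no second condition, and no p-value below compares conditions. They are called tumours 1, 2 and 3 in the order of deposition, and the labels do not say whether they came from separate donor mice.

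Cytochromes P450 are haem enzymes, most of which insert oxygen into their substrates. Most enzymes of the endoplasmic reticulum receive electrons from the reductase encoded by Por, and those of mitochondria receive them from ferredoxin. Families 1 to 3 act mainly on foreign compounds, most of them in liver, while other families make or clear steroids, bile acids, retinoic acid, vitamin D and fatty acid mediators. The receptor encoded by Ahr binds dioxins and other ligands and switches on genes such as Cyp1a1 and Cyp1b1, and Ahrr encodes its repressor. In mammary tissue, Cyp1b1 is known as an enzyme of oestrogen and polycyclic hydrocarbon oxidation.

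The libraries differed in depth and in the tissue they held. Tumour 1 had 47449153 estimated reads, against 11388769 for tumour 2 and 17147394 for tumour 3, and it was sequenced in another lane than tumours 2 and 3. Levels are CPM, the usual read count per unit of library size, with totals scaled by TMM factors, and log2 values carry a prior count of 2. Luminal epithelial markers were present in all 3 (7 of 7 past the filter on low counts, summed level 1651 to 2522 CPM). Skeletal muscle markers summed to 2.02 CPM in tumour 1, 44168 in tumour 2 and 18566 in tumour 3, with none of 6 at 0 in any library. None of 10 hepatocyte markers passed the filter, and they summed to 3.04, 0.870 and 0.890 CPM in tumours 1, 2 and 3. Ttr, Fga and Tat were at 0 in every library, and the highest, Ahsg, was at 1.98 CPM in tumour 1 and at 0 in the others. The biological coefficient of variation over all genes was 63.7% in the 3 tumours and 33.2% in tumours 2 and 3. Tumour 1 therefore stood apart, and values of tumours 2 and 3 set against each other are values within 1 lane. The lane and the difference of tumour 1 cannot be told apart.

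RefSeq windows were searched for the core letters of the dioxin response element near the starts of genes on which the results turn. The windows (GRCm38.p6) run from 250 bases before to 50 after the start, on the gene's strand. The genes are Cyp1b1 (chr17:79715012-79715311, minus strand) and Cyp4b1 (chr4:115647672-115647971, minus strand), both highest in tumour 1, and Por (chr5:135688895-135689194, plus strand) and Cyp2f2 (chr7:27119705-27120004, plus strand), both lowest there. The windows of Cyp1b1 and Por are printed 5′ to 3′. Those of Cyp4b1 and Cyp2f2 are not printed, and their lines are left blank. Capitals mark the core letters, GCGTG, or the same letters on the other strand, CACGC.
Cyp1b1: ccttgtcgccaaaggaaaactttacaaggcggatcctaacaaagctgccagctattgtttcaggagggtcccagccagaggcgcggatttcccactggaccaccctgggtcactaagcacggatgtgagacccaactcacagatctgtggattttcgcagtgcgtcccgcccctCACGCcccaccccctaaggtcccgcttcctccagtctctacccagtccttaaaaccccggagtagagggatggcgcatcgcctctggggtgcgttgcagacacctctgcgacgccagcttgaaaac
Cyp4b1: 
Por: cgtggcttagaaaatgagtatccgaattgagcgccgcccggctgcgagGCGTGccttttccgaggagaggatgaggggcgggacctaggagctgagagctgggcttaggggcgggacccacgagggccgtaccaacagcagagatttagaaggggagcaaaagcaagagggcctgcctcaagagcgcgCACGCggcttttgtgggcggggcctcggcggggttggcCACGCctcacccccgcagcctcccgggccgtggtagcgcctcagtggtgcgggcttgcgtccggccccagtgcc
Cyp2f2: 
The letters occurred once in the Cyp1b1 window, on the opposite strand, and in both directions in that of Por, whose window lies inside the gene's annotated span. The windows of Cyp4b1 and Cyp2f2 hold none, nor do those of Cyp4f18 and Cyp2s1. Of 32851 promoter windows in the table, 32.4% held them in either direction. Among described members, 21 genes were matched with 22 windows, and 7 of those windows (31.8%) held them. A match is a description of letters and not a binding site.

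The transcripts came from few of the P450 genes. Of the 68 members below 10 reads, 48 had no read in any library and 20 had 1 to 9 reads in some library. Just below the limit were Ahrr, with 8, 0 and 0 reads in tumours 1, 2 and 3, and Cyp2ab1, with 8, 7 and 0 reads. Just above it were Cyp11a1, with 3, 13 and 11 reads, and Cyp27b1, with 15, 0 and 0 reads. The others with any read were Cyp2d40 and Cyp17a1 with 5 reads in 1 library each, Cyp2b10 and Cyp2b19 with 4, Cyp2t4 with 3, and, with 1 or 2 reads in tumour 1 alone, Cyp1a1, Cyp2c65, Cyp2d26, Cyp2j8, Cyp2j12, Cyp2r1, Cyp3a11, Cyp3a13, Cyp4a10, Cyp4a32, Cyp4f37, Cyp4f39 and Cyp26c1. By family, 8 of 49 members of family 2 were described, 1 of 7 of family 3 and 6 of 17 of family 4, the large families in which many mouse genes are liver enzymes. Cyp1a1, which with Cyp1b1 is a classical target of the aryl hydrocarbon receptor, had 2, 0 and 0 reads. The aromatase gene Cyp19a1, which makes oestrogens, had no read in any library, nor did Cyp1a2. With 3 counts as the floor, a count of 0 allows up to 0.0434 CPM in tumour 1, 0.373 CPM in tumour 2 and 0.191 CPM in tumour 3, for counting error only.

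Detection moved with depth. In tumour 1, 28 members had 10 or more reads, against 20 in tumour 2 and 21 in tumour 3. After random thinning of all libraries to the total of tumour 2 these numbers were 22, 20 and 20. Of the 29 described members, 19 passed the filter on low counts, which asks for a minimum level in all 3 libraries.

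Summed over the P450 genes of the Cyp pattern, levels were 220, 213 and 139 CPM in tumours 1, 2 and 3. This sum leaves out Cyp51, Ptgis and Tbxas1, P450 genes outside that pattern. Those summed to 93.8, 1212 and 459 CPM. The composition of the sum over the Cyp pattern differed, in large part through Cyp1b1, though other genes differed too. Cyp1b1 held 49.9% of that sum in tumour 1, 1.23% in tumour 2 and 1.56% in tumour 3. Without it the sums were 110 CPM in tumour 1, 210 CPM in tumour 2 and 136 CPM in tumour 3. By role, enzymes of fatty acids and eicosanoids summed to 50.8, 141 and 85.9 CPM in tumours 1, 2 and 3, and those of foreign compounds to 129, 45.1 and 26.8 CPM. Enzymes of sterols, bile acids and steroids summed to 17.2, 12.6 and 12.8 CPM, and those of vitamins A and D to 4.15, 5.59 and 4.19 CPM. Fatty acid enzymes thus took the largest share in tumours 2 and 3, and foreign-compound enzymes in tumour 1. That share in tumour 1 rested on Cyp1b1, which held 110 of the 129 CPM. Of the other foreign-compound genes past the filter, Cyp2d22, Cyp2f2 and Cyp2s1 were lowest in tumour 1, and Cyp2e1 was lowest in tumour 3.

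**Figure D1:**
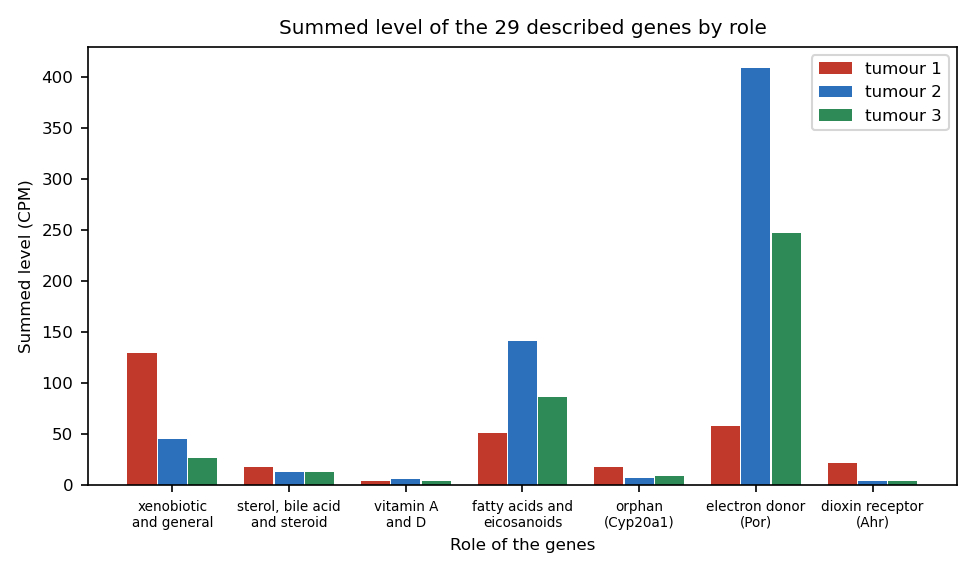
Summed level in CPM (y axis, from 0) of the 29 described genes by role (x axis) in tumours 1, 2 and 3 (bars from left to right in each group, 1 library each, no error bar). Por reaches 409 CPM in tumour 2 and 57.4 CPM in tumour 1. The foreign-compound enzymes are highest in tumour 1 at 129 CPM, of which Cyp1b1 alone makes up 110 CPM.

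The electron donor had the highest mean level of all members and was lowest in tumour 1. Por (chromosome 5, 135670033 to 135735326 in GRCm38) encodes the reductase that serves most P450 enzymes of the endoplasmic reticulum and also haem oxygenase. It was at 57.4 CPM in tumour 1 (95% Poisson interval 55.6 to 59.2), 409 CPM in tumour 2 (395 to 423) and 247 CPM in tumour 3 (240 to 255), a mean of 238 ± 176 CPM (SD, n = 3). The intervals of the 3 tumours did not overlap, and tumour 1 was more than 4-fold below both others, at a ratio of 0.140 to tumour 2 (95% interval 0.134 to 0.147) and 0.232 to tumour 3 (0.222 to 0.242). Within the lane, tumour 2 was 1.65-fold above tumour 3 (1.58 to 1.73). Per kilobase of the longest transcript, Por averaged 90.2 CPM. Among P450 genes of the Cyp pattern, Cyp4f13 had the highest such level, 18 CPM. Ptgis, a P450 gene outside that pattern, averaged 443 CPM, with no level per kilobase worked out. None of the 50-base stretches of the Por transcript occurs in a transcript of another gene.

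The receptor gene Ahr went the other way. Ahr (chromosome 12, 35497974 to 35535038) was at 21.2 CPM in tumour 1 (95% Poisson interval 20.1 to 22.3), 4.23 CPM in tumour 2 (2.93 to 5.90) and 4.13 CPM in tumour 3 (3.19 to 5.27). The intervals of tumours 2 and 3 overlapped, with a ratio of 1.02 (0.655 to 1.57), and tumour 1 lay above both, at ratios of 5.02 (3.58 to 7.28) and 5.14 (4.01 to 6.69). The repressor gene Ahrr had 8, 0 and 0 reads in tumours 1, 2 and 3. At 0.116 CPM in tumour 1, it was below what a count of 0 allows in tumours 2 and 3, 0.373 and 0.191 CPM. A difference in Ahrr was thus not detectable at this depth.

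Of the enzymes of foreign compounds, Cyp1b1 spread farthest. Cyp1b1 (chromosome 17, 79701537 to 79715061) had 7586 reads in tumour 1, 21 in tumour 2 and 34 in tumour 3, or 110 CPM (95% Poisson interval 107 to 112), 2.61 CPM (1.62 to 3.99) and 2.16 CPM (1.5 to 3.02). Tumour 1 was thus 42.0-fold above tumour 2 (27.5 to 67.9) and 50.7-fold above tumour 3 (36.3 to 73.3), whereas tumours 2 and 3 did not differ beyond counting error (ratio 1.21, 0.666 to 2.14). Its log2 CPM in tumour 1 was 5.49 above the mean of the others. No 50-base stretch of its transcript is shared with a transcript of another gene.

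The other foreign-compound enzymes were lower. Cyp2e1, which oxidises ethanol and other small molecules, averaged 14.9 ± 5.33 CPM (SD, n = 3), with 14.2 CPM in tumour 1, 20.5 CPM in tumour 2 and 9.91 CPM in tumour 3, and no tumour was 4-fold apart. Within the lane it was 2.07-fold higher in tumour 2 than in tumour 3 (1.65 to 2.59). Cyp2d22, a mouse gene of the drug-metabolising 2d subfamily, was at 2.60, 7.83 and 8.64 CPM, lowest in tumour 1. Cyp2f2, known for the activation of naphthalene in mouse airway cells, was at 0.491 CPM in tumour 1 (34 reads), 6.09 CPM in tumour 2 (49 reads) and 4.70 CPM in tumour 3 (74 reads). Tumour 1 was at 0.0807 of tumour 2 (0.0505 to 0.128) and 0.105 of tumour 3 (0.0675 to 0.159), although it was the deepest library, and tumours 2 and 3 did not differ beyond counting error (ratio 1.29, 0.884 to 1.88). Cyp2s1, a P450 of epithelia outside the liver, was at 0.578, 8.08 and 1.33 CPM. It was the member that set tumour 2 apart, 6.05-fold above tumour 3 (3.65 to 10.4) within the lane, on 65 and 21 reads. The last 2, Cyp3a57 with 72, 0 and 1 reads and Cyp2c55 with 21, 0 and 0 reads, did not pass the filter. The Cyp3a57 level in tumour 1 was at least 2.79-fold higher than in tumour 2 with the floor of 3 counts per library, and 16.4-fold above that in tumour 3, where a single read gives an interval of 2.85 to 656.

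Among enzymes of fatty acids and eicosanoids, Cyp4f13, Cyp4f16 and Cyp4f18 had the highest mean levels per kilobase. Cyp4f16 was at 18.1, 41.0 and 38.3 CPM in tumours 1, 2 and 3, and Cyp4f13 at 7.40, 65.6 and 21.6 CPM. Cyp4f18, a leukotriene hydroxylase of mouse neutrophils, was at 1.63 CPM in tumour 1 (95% Poisson interval 1.35 to 1.96), 18.1 CPM in tumour 2 (15.3 to 21.3) and 9.28 CPM in tumour 3 (7.83 to 10.9). All 3 were lowest in tumour 1, and Cyp4f18 was more than 4-fold below both others there. Within the lane, tumour 2 was above tumour 3 for Cyp4f13, 3.04-fold (2.64 to 3.49), and for Cyp4f18, 1.96-fold (1.54 to 2.48), while Cyp4f16 did not differ beyond counting error (ratio 1.07, 0.934 to 1.23). Cyp4f17 (chromosome 17, 32506050 to 32530143), which lies close to Cyp4f16 (32536558 to 32551798), had the opposite pattern, with 162 reads in tumour 1 and 0 in both others, at least 6.28-fold and 12.3-fold higher with the floor of 3 counts per library. Genes of this cluster resemble each other, so their counts are uncertain: 26.5% of the 50-base stretches of the Cyp4f16 transcript also occur in other genes, led by Cyp4f37 and Cyp4f17, as do 3.25% of those of Cyp4f17 and 2.70% of those of Cyp4f13.

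The remaining fatty acid enzymes were lower. Cyp4b1, which hydroxylates fatty acids and activates toxins in rodent lung, was at 6.49 CPM in tumour 1, 1.12 CPM in tumour 2 (9 reads) and 1.46 CPM in tumour 3 (23 reads). Tumour 1 was 5.80-fold above tumour 2 (3.03 to 12.8) and 4.44-fold above tumour 3 (2.92 to 7.08). Of its 50-base stretches, 10.3% also occur in the pseudogenes Cyp4b1-ps1 and Cyp4b1-ps2, so its count is uncertain to that extent. The adipocyte markers, none at 0 in any library, summed to 447, 322 and 250 CPM in tumours 1, 2 and 3; of 8, all past the filter, 1 was at least 4-fold above in tumour 1, Adipoq at 24.3, 3.6 and 3.69 CPM. Cyp4v3, a fatty acid hydroxylase, had the smallest SD of log2 CPM of all members past the filter (0.26), with 7.03, 7.08 and 9.66 CPM. Cyp2u1, a fatty acid hydroxylase, was at 2.76, 6.84 and 1.97 CPM, highest in tumour 2 and 3.47-fold above tumour 3 there (2.19 to 5.58). Of the arachidonic acid epoxygenase subfamily, Cyp2j6 was at 4.34, 1.49 and 3.62 CPM, lowest in tumour 2, and Cyp2j9 had 47, 1 and 0 reads.

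Enzymes of sterols and bile acids were all below 10 CPM. Cyp39a1, which acts on oxysterols, was at 7.99, 2.11 and 5.15 CPM in tumours 1, 2 and 3, lowest in tumour 2, which was at 0.410 of tumour 3 (0.228 to 0.698). Cyp7b1, the oxysterol hydroxylase of the alternative bile acid pathway, was at 4.39, 4.72 and 2.54 CPM. Cyp27a1, the mitochondrial sterol hydroxylase, was at 3.38, 1.99 and 3.88 CPM, or 3.08 ± 0.979 CPM (SD, n = 3), and was the member whose counts did not differ between libraries beyond counting noise (adjusted p = 0.0587, chi-square test in all 3 libraries). They did with library totals, with thinned counts and without tumour 1 or tumour 3, and within the lane tumour 2 was at 0.513 of tumour 3 (0.276 to 0.901). For the brain cholesterol hydroxylase gene Cyp46a1, below the filter, 79, 16 and 7 reads were found, or 1.14, 1.99 and 0.445 CPM. Enzymes of steroid hormone synthesis were near the limit: Cyp11a1, which makes the first cut of cholesterol, had 3, 13 and 11 reads, and the adrenal enzyme gene Cyp21a1 had 19.6, 1 and 2 reads, with 23.7% of its 50-base stretches shared with the pseudogene Cyp21a2-ps. Of 5 markers of steroidogenic cells none passed the filter. Hsd3b1 and Hsd3b6 were at 0 in every library. The cholesterol transporter gene Star had 244, 11 and 5 reads, or 3.53, 1.37 and 0.318 CPM. The corticotropin receptor gene Mc2r had 54, 6 and 0 reads, or 0.781, 0.746 and 0 CPM.

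Genes that clear retinoic acid and handle vitamin D were low. Cyp26b1, which degrades retinoic acid, was at 2.66, 5.59 and 3.30 CPM in tumours 1, 2 and 3. Its relative Cyp26a1 had 55 reads in tumour 1, 0 in tumour 2 and 13 in tumour 3, or 0.795, 0 and 0.826 CPM. With the floor of 3 counts in tumour 2, tumour 1 was at least 2.13-fold higher. The vitamin D genes were found almost only in the deepest library: Cyp24a1, which inactivates the hormone, had 33, 0 and 1 reads, and Cyp27b1, which makes it, 15, 0 and 0 reads. For Cyp27b1 the level in tumour 1, 0.217 CPM, was below the 0.373 CPM that a count of 0 allows in tumour 2, so a difference from that tumour was not detectable at this depth. Cyp20a1, an orphan enzyme with no established substrate, was at 18.1, 7.21 and 8.52 CPM, 2.50-fold higher in tumour 1 than in tumour 2 (1.92 to 3.32) and 2.12-fold higher than in tumour 3 (1.77 to 2.55).

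**Figure D2:**
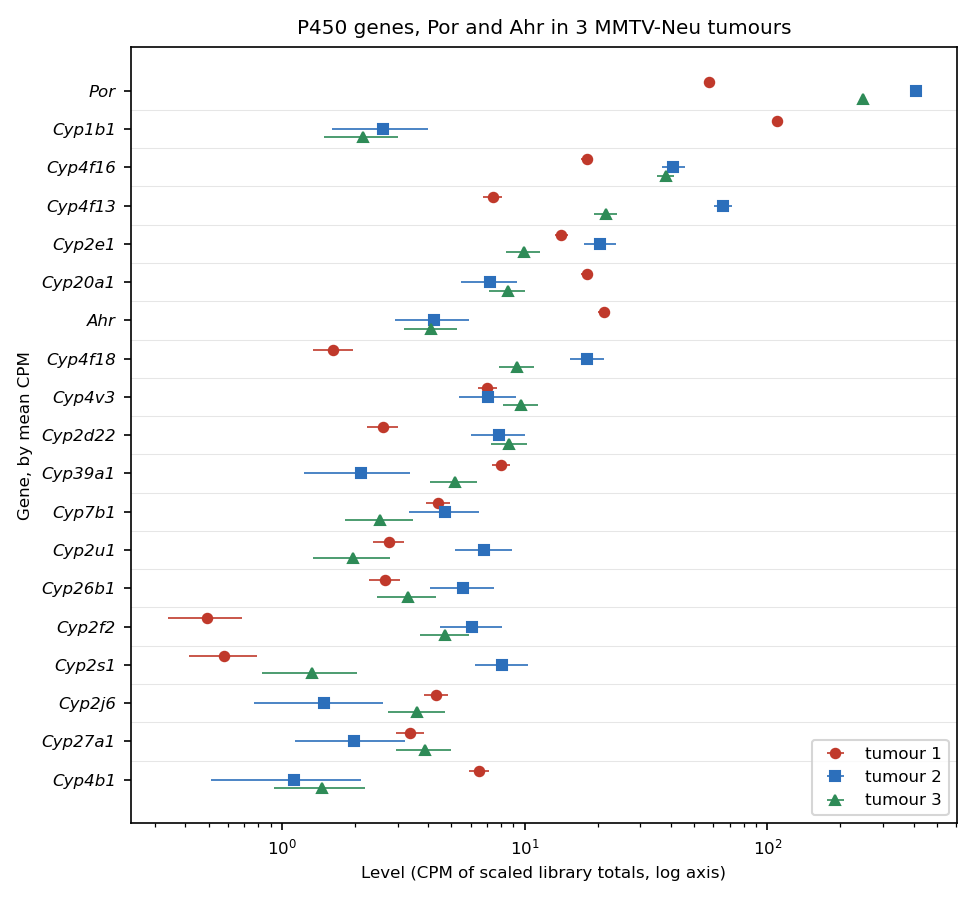
Level in CPM (x axis, log scale) of the 19 members past the filter (y axis, by mean CPM) in tumours 1 (circles), 2 (squares) and 3 (triangles), 1 library each, with 95% Poisson intervals that cover counting error only. Tumour 1 stands far to the right for Cyp1b1 and to the left for Por, Cyp4f18 and Cyp2f2, while Cyp4v3 and Cyp27a1 lie close together.

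**Figure D3:**
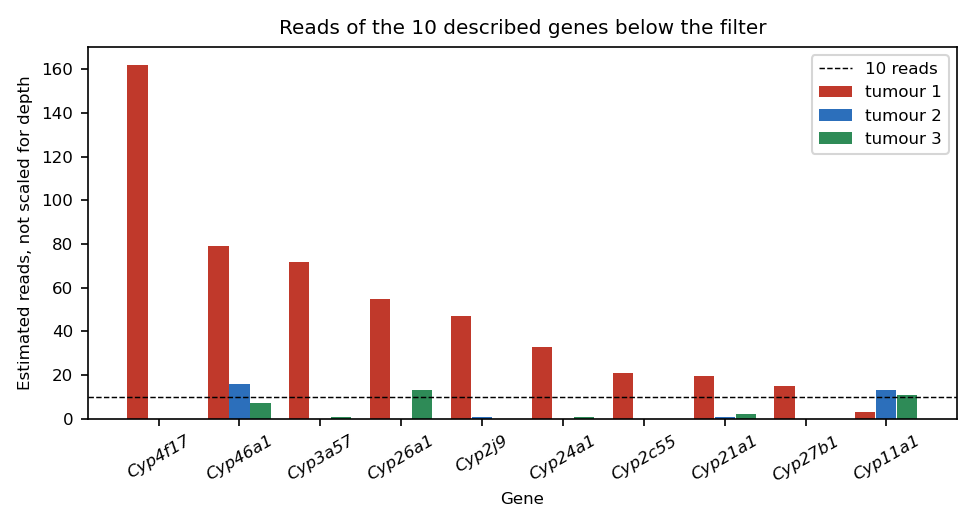
Estimated reads (y axis, from 0, not scaled for depth) of the 10 described members below the filter (x axis) in tumours 1, 2 and 3 (bars from left to right), with a dashed line at 10 reads. Tumour 1, the deepest library, has the most reads for all but Cyp11a1, and Cyp4f17 reaches 162 reads there against 0 in both others.

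A fixed fold was used to count the members that set a tumour apart. Of the 19 past the filter, 3 (Ahr, Cyp1b1 and Cyp4b1) were at least 4-fold above both other tumours in tumour 1, where 6.05% of all genes past the filter were, and 3 (Cyp2f2, Cyp4f18 and Por) were at least 4-fold below, where 8.21% of all genes were. In tumour 2, 1 member (Cyp2s1) was above, against 0.252% of all genes, and 0 were below, against 0.59%. In tumour 3, 0 members were above and 0 below, against 0.0787% of all genes in each direction. Scaling by library totals ended the calls of Por and Cyp4f18, and thinning to the shallowest library ended those of Cyp4b1, Cyp2f2 and Cyp2s1, which then failed the filter. Of the members below the filter, Cyp4f17 was the one whose lower bound over both other tumours passed 4-fold. In the other direction, Cyp11a1 in tumour 1 was at 0.0268 of tumour 2 (0.00491 to 0.0977) and 0.0620 of tumour 3 (0.0111 to 0.235). This rested on 3, 13 and 11 reads.

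Within the lane, tumours 2 and 3 were closer. At least 4-fold, 1 of the 19 members (Cyp2s1) was above in tumour 2 over tumour 3, against 0.448% of all genes past the filter, and 0 were below, against 0.755%. Below the filter, Cyp46a1 was 4.47-fold higher in tumour 2, on 16 and 7 reads (1.74 to 12.8). The median absolute difference between these tumours was 0.75 on the log2 scale over the 19 members and 0.47 over all genes past the filter. Over the 3 tumours the median SD of log2 CPM was 0.95 for the members and 0.72 for all genes. Counts of 18 of the 19 members differed between libraries beyond counting noise (chi-square test with Benjamini-Hochberg adjustment over all genes), as did those of 94.2% of all genes. With tumour 1 left out, it was 11 of 19, with no share over all genes worked out to set beside it. That test compares these libraries, not conditions.

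Relative to the other tumours, members of high GC content were lower in tumour 1. Across the 19 members the difference of tumour 1 from the mean of tumours 2 and 3 had a Spearman rho of −0.74 with the GC content of the longest transcript, and across 12343 genes it was −0.30. For the difference of tumour 2 from tumour 3, within the lane, rho was 0.51 across the members and 0.25 across the same genes. The points share the same 3 libraries and are not independent, and the values are a description. Cyp1b1, Ahr and Cyp20a1 have a GC content of 46.1, 46.2 and 44.9%, while Por, Cyp2s1 and Cyp4f18 have 58.3, 57 and 56.1%. With the trend on GC content and length removed, the difference of Cyp1b1 was 4.81 in place of 5.49, that of Cyp4b1 2.55 in place of 2.29, that of Cyp2f2 −2.84 in place of −3.28, that of Ahr 1.63 in place of 2.33, and that of Por −1.74 in place of −2.47 (log2 CPM, tumour 1 minus the mean of the others). Ahr, Por and Cyp4f18 (−2.18 in place of −2.94) were then no longer at least 4-fold apart from both others, and Cyp1b1, Cyp4b1 and Cyp2f2 still were.

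**Figure D4:**
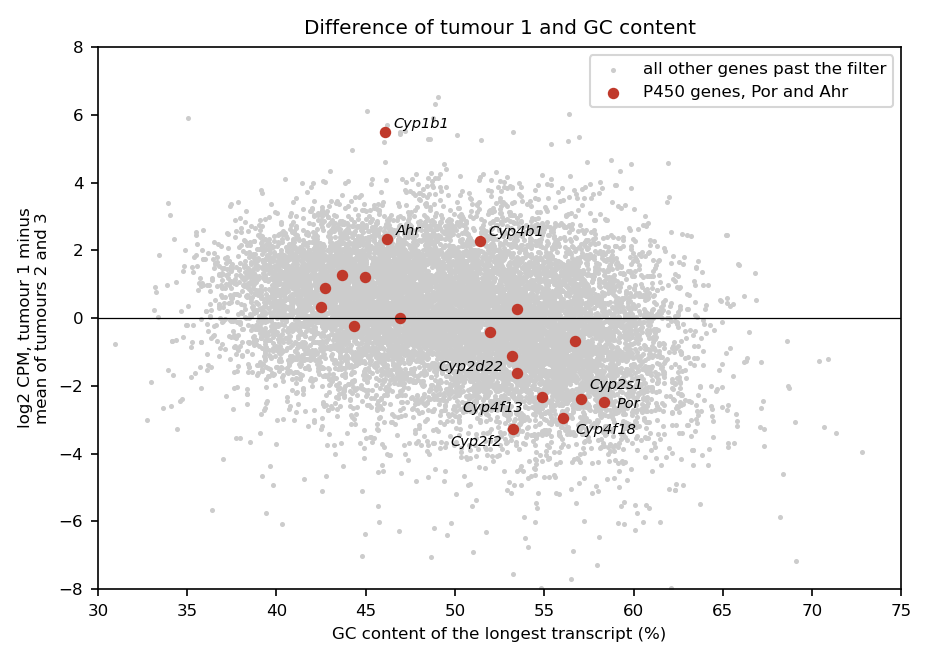
Difference of log2 CPM between tumour 1 and the mean of tumours 2 and 3 (y axis) against the GC content in percent of the longest transcript (x axis) for the 19 members (large points) and all other genes past the filter (small points), with 7 genes outside the axes. Cyp1b1, at 5.49, lies near the upper edge of the cloud, and Por, Cyp2s1, Cyp4f13 and Cyp4f18 lie below 0 at higher GC contents.

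Some markers of cell types set tumour 1 apart as well. All 5 basal epithelial markers were at least 4-fold above in tumour 1, where 6.05% of all genes past the filter were. Their summed level was 540 CPM there, 51.0 CPM in tumour 2 and 58.5 CPM in tumour 3, with none at 0 in any library. The basal markers were thus high in the same library as Cyp1b1, Ahr and Cyp4b1. Of the 5 endothelial markers, 2 (Pecam1 and Emcn) were at least 4-fold below in tumour 1, where 8.21% of all genes were. All 5 summed to 138, 1029 and 370 CPM in tumours 1, 2 and 3. Cdh5 was lowest in tumour 1 too, but Kdr was at 19.2, 33.6 and 15.6 CPM and Tek at 5.87, 6.46 and 5.59 CPM. Of 5 dendritic cell markers, 2 (Flt3 and Batf3) were at least 4-fold below in tumour 1 (summed level 22.2, 82.5 and 49.1 CPM). Xcr1 and Ccr7 were lowest there as well, while Itgax was highest, at 16.7, 6.71 and 6.74 CPM. None of these markers was at 0 in any library. The 2 skeletal muscle markers past the filter were also at least 4-fold below in tumour 1. Neutrophil markers summed to 37.9, 30.4 and 41.1 CPM, with 1 of 5 at 0 in each library, 1 at least 4-fold above in tumour 1 and 0 below, beside Cyp4f18, which was lowest there. Fibroblast markers summed to 3989, 6462 and 3483 CPM and macrophage markers to 178, 515 and 376 CPM, with none at 0 and none 4-fold apart. The part of these cells in the P450 levels was not tested, and in bulk tissue fewer cells of a type and less RNA per cell cannot be told apart.

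The partners of the P450 enzymes were present in all 3 tumours. All 11 redox partners passed the filter, 0 were at least 4-fold above in tumour 1 and 1, the haem oxygenase gene Hmox1, was below, at 30.9, 149 and 129 CPM in tumours 1, 2 and 3. The cytochrome b5 reductase gene Cyb5r3 was at 66.7, 253 and 186 CPM, with the lowest level in tumour 1 as for Por. Fdxr, which feeds electrons to mitochondrial P450 enzymes, was at 7.85, 48.7 and 26.9 CPM. Fdx1l, Cyb5a, Cyb5r1 and Pgrmc2 were also lowest in tumour 1. The ferredoxin gene Fdx1 went the other way, at 16.1, 9.20 and 7.69 CPM, as did Pgrmc1 at 58.2, 32.7 and 31.9 CPM. Cyb5b and Hmox2 were also highest in tumour 1, by less. Among the P450 enzymes named outside the Cyp pattern, the prostacyclin synthase gene Ptgis was at 4.71, 1009 and 315 CPM, more than 4-fold below in tumour 1, and Cyp51, of cholesterol synthesis, at 83.4, 196 and 137 CPM.

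Of the genes of the aryl hydrocarbon receptor pathway, 12 of 15 passed the filter. In tumour 1, 1 of them was at least 4-fold above, where 6.05% of all genes were, and 0 were below, where 8.21% were. This was Arnt2, a partner of such receptors, at 35.2, 0.870 and 4.70 CPM, which was also at least 4-fold below in tumour 2. The receptor's chaperone genes Hsp90ab1 and Hsp90aa1 were at 1543, 3853 and 3661 CPM and at 358, 1299 and 768 CPM, lowest in tumour 1. Known targets of the receptor in this list were named after its values were seen. Tiparp was at 7.83, 5.10 and 11.2 CPM and Nqo1 at 4.28, 3.6 and 5.59 CPM, both without a tumour at least 4-fold apart, and Aldh3a1 was at 4.76, 1.12 and 1.33 CPM, highest in tumour 1 but below the 4-fold limit. The glucuronosyltransferase gene Ugt1a6a, which did not pass the filter, had 613, 17.8 and 1 reads, also highest in tumour 1, with uncertain counts because the Ugt1a genes share exons.

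In the other pathways in which P450 enzymes act, calls in tumour 1 were 0 or 1 of each list in each direction, against the same 6.05% above and 8.21% below of all genes. Among 18 receptors that control P450 genes, 10 passed the filter, 0 were above in tumour 1 and 1 was below, the retinoic acid receptor gene Rara at 27.4, 265 and 122 CPM, while Rarg was at 59.8, 120 and 114 CPM. Of retinoid-handling genes 11 of 13 passed, with 0 above and 1 below, the binding protein gene Crabp1 at 2.99, 26.5 and 33.6 CPM. The retinol transporter gene Stra6 was even, at 46.4, 39.3 and 39.2 CPM. Of steroid-handling genes 8 of 15 in the tables passed, with 1 above, the dehydrogenase gene Hsd17b4 at 54.8, 5.97 and 9.66 CPM, and 0 below. Hsd17b12 was at 101, 44.4 and 67.2 CPM and Srd5a3 at 36.8, 78.5 and 52.9 CPM. Epoxide and eicosanoid genes passed in 12 of 15 cases, with 0 above and 1 below, the leukotriene synthase gene Ltc4s at 3.53, 117 and 57.1 CPM, beside Ptges2 at 53.0, 125 and 104 CPM. Of conjugating genes 7 of 10 passed, with 1 above, the glutathione transferase gene Gstt1 at 41.0, 7.83 and 6.36 CPM, and 0 below. Gstp1, another glutathione transferase gene, was at 115, 94.3 and 148 CPM.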

How the data were processed

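The deposited values are estimated counts per gene symbol, Salmon read numbers not scaled for depth or length, per the file headers. STAR, SAMtools, Picard and build mm10 are named in the submitters' processing notes as well. Their versions, the annotation release and whether strand was used were not given in the sources used here, so reads of antisense partners cannot be told apart. Libraries are paired-end reads of 50 bases from total RNA with an Illumina TruSeq mRNA kit, per the labels' protocols.

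Counts were rounded and filtered with filterByExpr of edgeR 4.0.16 (R 4.3.3; minimum count 10, minimum total 15), leaving 12710 genes, and scaled with TMM factors of 1.48, 0.722 and 0.936. A gene was called apart when its log2 CPM differed by 2 or more (4-fold) from that of each other tumour in the same direction. The chi-square test set counts against scaled totals, Benjamini-Hochberg adjusted at 0.05. Ratio intervals are exact binomial and level intervals exact Poisson, at 95%; both cover counting error only. The calls were run on simulated counts that held counting noise alone, with changes placed in tumour 1 in genes of many reads. That simulation did not cover the spread between tumours or changes in genes of few reads. Lengths, GC contents and positions are from GENCODE M21 (GRCm38, the assembly also named mm10), using the longest transcript; 97.1% of genes past the filter had both. Promoter sequences are from RefSeq.

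Members and gene lists were chosen with earlier results of these data known. All members with 10 or more reads are described; of each pathway list the 2 genes with the highest mean CPM and the one with the widest range are named, except some that are not reported here. Replicates are numbered in accession order, which pairs nothing. DESeq2 1.42.0 served as an alternative.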

Additional observations from a re-analysis of the deposited data

How the results depend on the processing

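Depth and 1 library limit these results. No paired analysis was possible because all samples form 1 group. Scaling by library totals shifted the median difference of tumour 1 over all genes by 0.84 (log2) and turned the sign of 4 of 19 members (Cyp2u1, Cyp26b1, Cyp2e1 and Cyp4v3), so that 12 in place of 8 were higher in tumour 1; DESeq2 size factors turned none. Shares over all genes were worked out for the main setting and with a dispersion added alone. Counts of members at the other settings thus cannot be read as particular to the members. In tumour 1, 3 members were at least 4-fold above, and 9 without a filter and 1 at 8-fold (Cyp1b1). The 9 include Cyp24a1, Cyp27b1, Cyp2c55, Cyp2j9, Cyp3a57 and Cyp4f17, each with 0 or 1 reads in tumour 2 and in tumour 3. Below in tumour 1 were 3, and 1 with library totals (Cyp2f2), 7 at 2-fold, 1 at 8-fold and 1 with the GC and length trend removed, an alternative chosen after the data were seen. With thinned counts Ahr and Cyp1b1 stayed above and Por and Cyp4f18 below, and Cyp4b1, Cyp2f2 and Cyp2s1 failed the filter, with differences of 1.88, −3.23 and −2.67 (log2) in place of 2.29, −3.28 and −2.39. With a prior count of 10, Cyp4b1 was not called. Above in tumour 2 was 1, and 2 without a filter, 0 with thinned counts, 3 at 2-fold and 0 at 8-fold; below were 0, and 1 without a filter and 2 at 2-fold. Above in tumour 3 was 0, and 1 without a filter. Members past the filter numbered 19, and 49 without one. Counts beyond counting noise were found for 18 members, for 28 without a filter, for 5 when edgeR's common dispersion was added to the variance (11.6% of all genes) and for 6 with the DESeq2 dispersion trend (20.8%); Ahr and Cyp4b1 were in neither set, and Cyp1b1 in the second alone. Leaving out 1 tumour at a time gave 3 to 3 members above and 3 to 5 below in tumour 1, 1 to 5 above and 0 to 3 below in tumour 2, 0 to 3 above and 1 to 3 below in tumour 3, and 11 to 18 beyond counting noise, with 11 when tumour 1 was left out; with 1 tumour to compare with, the rule is easier to meet. The median SD of 0.95 ranged from 0.51 without tumour 1 to 1.09 without tumour 3. Of single-member differences under alternatives, 263 moved by less than their SD over tumours, 17 by more, and 0 called ones turned. That SD holds the difference of tumour 1 itself, so a large difference can change much and still count among the 263. The difference of Cyp4f17, for example, was 3.05 in place of 5.22 with a prior count of 10, against an SD of 3.01.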
